A study of Sus scrofa with 63 samples.

Results

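Jejunum RNA of fetuses that shared a Large White (LW) sire breed but grew in sows of different breeds was compared at day 90 of gestation. The comparison holds 18 of the 63 fetuses of the study, chosen by their labels alone: 9 purebred LW fetuses (LW sire, LW sow; labelled LWLW) and 9 crossbred LWMS fetuses (LW sire, Meishan sow). Meishan (MS) is a Chinese breed, and the study chose it and LW because they lie far apart in the mortality of newborn piglets, which is low in MS. All 63 fetuses were male, 1 fetus was hybridised per one-colour porcine oligonucleotide array, and the tissue was the middle of the jejunum. MS and LW sows had been inseminated with semen of both breeds, so that litters were mixed. LWMS fetuses therefore had purebred MS litter mates, and LW fetuses had MSLW litter mates (MS sire, LW sow). The sow of each fetus is not given in the labels, so litter mates were counted as independent fetuses, and p-values can then be too small.

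In this cross the sow gives the uterus and placental supply, one set of autosomes, the single X chromosome of a male fetus and its mitochondria, while the Y chromosome came from an LW sire in both groups. These contributions of the sow cannot be told apart by comparing these 2 groups. A difference in the level of a transcript and a difference in its sequence under a probe cannot be told apart either, since a mismatched base weakens hybridisation to an oligonucleotide. In whole tissue, fewer cells of a type and less RNA per cell cannot be told apart. Late in gestation the pig jejunum takes up swallowed fluid through endocytic enterocytes, its villi lengthen, and the rise of fetal cortisol before birth induces digestive enzymes. The mitochondrial genome encodes core subunits of the respiratory chain, namely the ND subunits of complex I, cytochrome b (CYTB) of complex III, the COX subunits of complex IV and the ATP subunits of the ATP synthase. It is passed on by the mother alone.

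Levels are on a log2 scale, as the background-corrected signal less the 75th percentile of its array, and differences are LWMS minus LW, so that a difference of 1 is a doubling. A probe was called at an adjusted p under 0.05 in limma (two-sided, Benjamini-Hochberg adjustment over all 40515 probes tested). Each gene stands by its brightest tested probe, and values of other probes are named as such. Levels of different probes cannot be set against each other.

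Arrays of the groups differed somewhat in the share of spots well above background, and 2 fetuses stood apart. In LW such spots made up 56.7 to 73.9% of the array (median 69.1%). In LWMS they made up 59.2 to 87.6% (median 64.5%), where the highest was fetus 823 and the other 8 did not exceed 67.5%. The median correlation of an array with the others of its group was 0.973 to 0.979 in LWMS. It was 0.937 for LW fetus 484, with a median of 0.978 over LW. Without both, 332 probes were called in place of 336, and 65 of the 77 genes called remained so. Among those named here, SLC5A4, CPT2, COX7B, ALDH1B1, SH3BGRL and TMEM47 did not, with values of 1.48, 0.26, −0.65, 0.95, −0.48 and 0.67 (limma adjusted p of 0.054 to 0.21). Of 19 brush-border enzyme genes tested, 18 were well above background on all 18 arrays, as were all 13 enteroendocrine and 6 of 7 goblet cell markers. The arrays lay on 8 slides, 7 of which held both groups.

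Some probes are shown here because they carry the clearest differences and lie on a genome that comes from the sow alone, or because their sequence bears on how the difference is read. They were taken from the array files, 5′ to 3′. In the first 3, all for ND1, capitals mark a run of 36 bases that these probes share at shifted positions.
ND1 probe a: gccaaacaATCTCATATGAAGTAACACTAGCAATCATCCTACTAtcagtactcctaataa
ND1 probe b: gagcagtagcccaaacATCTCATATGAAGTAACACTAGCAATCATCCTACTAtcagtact
ND1 probe c: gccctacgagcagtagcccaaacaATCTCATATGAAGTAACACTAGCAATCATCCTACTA
The next pair, for CYTB, overlaps by 56 bases, and capitals mark the 2 positions at which the overlapping parts differ.
CYTB probe a: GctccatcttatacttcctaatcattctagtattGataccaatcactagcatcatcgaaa
CYTB probe b: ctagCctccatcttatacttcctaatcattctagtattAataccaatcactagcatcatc
The ND2 probes with the largest differences are shown in lower case throughout.
ND2 probe a: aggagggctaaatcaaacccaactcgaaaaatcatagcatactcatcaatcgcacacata
ND2 probe b: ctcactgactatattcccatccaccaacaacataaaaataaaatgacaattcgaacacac
The last are for CYP11A1, the enzyme that starts steroid synthesis by cleaving the side chain of cholesterol. Capitals mark 57 bases shared by the first pair, and the others lie elsewhere in the transcript. Probe a is printed on the array under 2 probe names.
CYP11A1 probe a: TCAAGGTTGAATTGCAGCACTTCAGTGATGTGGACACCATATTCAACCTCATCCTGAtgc
CYP11A1 probe b: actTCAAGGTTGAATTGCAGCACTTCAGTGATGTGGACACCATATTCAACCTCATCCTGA
CYP11A1 probe c: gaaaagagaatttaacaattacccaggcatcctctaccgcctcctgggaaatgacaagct
CYP11A1 probe d: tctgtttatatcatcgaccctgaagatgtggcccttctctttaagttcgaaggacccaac

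At day 90 few jejunal transcripts differed between LWMS and LW, and those few were spread unevenly over the genome. Of 40515 probes tested, 336 were called (0.829%), 187 higher in LWMS (0.462%) and 149 lower (0.368%). In the authors' processed values the balance turned, with 176 higher and 228 lower. Of 10809 genes, 77 were called (0.712%), 51 higher (0.472%) and 26 lower (0.241%). The median difference over all genes was 0.05, and 61.0% of genes had a positive value. In 107 of the 336 called probes every fetus of one group lay above every fetus of the other, against 145 of all probes tested (0.358%). Within the 7 slides that held both groups, 245 of the 336 had the same sign in all 7, against 1698 of all probes tested. Array files and reference tables gave no gene name for 169 of the called probes, 84 higher and 85 lower, with values from −3.89 to 4.22.

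Mitochondrial probes were called most often. Of 127 tested, 28 were called (22%), 11 higher and 17 lower, and in 14 the groups did not overlap. On the X chromosome 20 of 766 probes were called (2.61%), 5 higher and 15 lower. Named autosomal probes were called in 109 of 20635 cases (0.528%), 80 higher and 29 lower. By gene, 12 of 357 X-linked genes were called (3.36%) against 56 of 9465 autosomal genes (0.592%). Of 13 mitochondrial genes 1 was called by its brightest probe (7.69%), namely ND4L, so the share of 22% rests mostly on other probes of these genes. Probes of 1 gene are not independent, and no test was made of these shares.

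**Figure D1:**
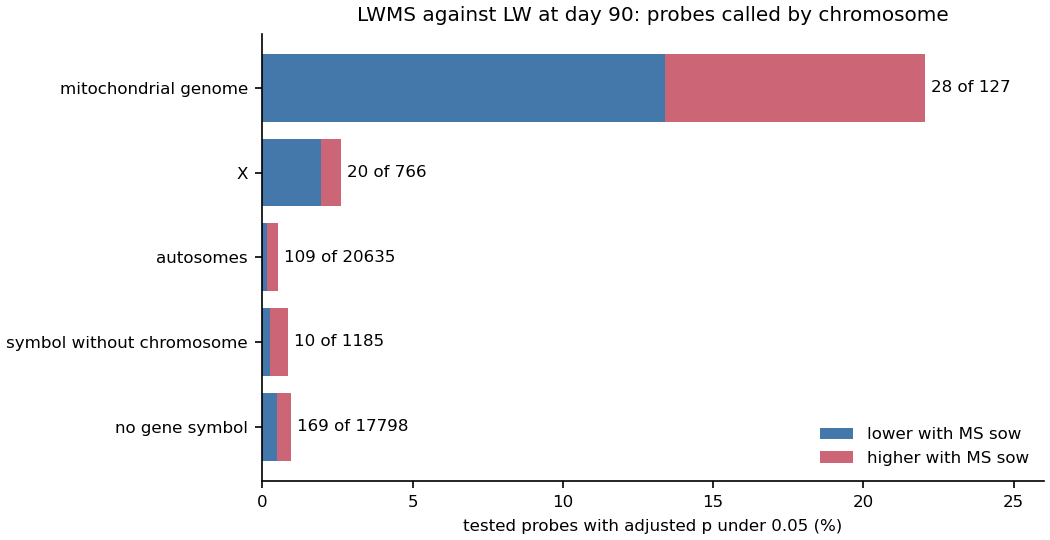
Share of tested probes called in LWMS against LW fetuses at day 90 (percent, horizontal axis) for the mitochondrial genome, the X chromosome, the autosomes together and probes without a chromosome or gene symbol, with probes higher and lower in LWMS in separate colours and counts beside each bar. The mitochondrial genome stands at 22%, the X chromosome at 2.61% and the autosomes at 0.528%. The 4 Y-linked probes tested, none called, are not drawn.

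Within the mitochondrial genome, probes of the same transcript differed in both directions. ND2 probes were lower only, with 6 of 12 called and a range of −2.28 to −0.05. On ND2 probe a, LW fetuses lay at 5.84 to 6.54 (median 6.30) and LWMS fetuses at 4.15 to 4.77 (median 4.44). The groups were far apart, with a difference of −1.78 (SE 0.16, limma adjusted p = 6.6e-12). On ND2 probe b, LW lay at 5.78 to 7.06 (median 6.34) and LWMS at 2.70 to 4.80 (median 4.5), again without overlap (−2.28, SE 0.34, limma adjusted p = 1.1e-05). The brightest ND2 probe nevertheless had a value of −0.08 with an adjusted p of 0.96 in limma.

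ND1 probes gave 5 lower calls and 1 higher call among 20, with a median of −0.04. The 3 probes that share the 36-base run were all called, but with unequal sizes. ND1 probe a lay at 5.32 to 6.02 in LW and 2.68 to 4.06 in LWMS, a difference of −2.19 (SE 0.27, limma adjusted p = 9.7e-08). Shifted along the same run, probe b differed by −1.03 and probe c by −0.59. The bases just before the run also differ between the 3 probes, so they are not plain shifts of 1 sequence. What set the unequal sizes was not tested. Another ND1 probe went the other way, from 5.48 to 6.43 (median 5.90) in LW to 6.41 to 7.09 (median 6.75) in LWMS, with overlap at the edge only (0.80, limma adjusted p = 5.4e-05).

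CYTB, the other gene with calls of both signs, had 4 higher and 2 lower calls among 21 probes. The lower calls were the overlapping pair. CYTB probe a fell by 0.86 (limma adjusted p = 2.7e-06, groups without overlap) and probe b fell by 0.52 (limma adjusted p = 0.024). Counted from 1 at the 5′ end of probe b and given as the base of probe b, the position and the base of probe a, they differ by C5G and A39G. COX1 had 3 lower calls among 25 probes and a positive median of 0.21, with 1 probe at −2.22 (6.04 to 7.49 in LW, 2.50 to 5.58 in LWMS). COX2 had 1 lower call among 5 probes (−1.57).

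ND4 and ND4L, which are transcribed together, had higher calls only. In ND4 4 of 11 probes were called, and all 11 had positive values from 0.02 to 0.61. ND4L has 1 probe, which lay at 4.31 to 4.92 in LW and 4.88 to 5.59 in LWMS (0.54, SE 0.13, limma adjusted p = 0.025). ND3 had 1 higher call among 3 probes (0.69). No probe was called for ATP6 (9 probes), ATP8, COX3 (14), ND5 or ND6. The median over all 127 mitochondrial probes was 0.08.

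**Figure D2:**
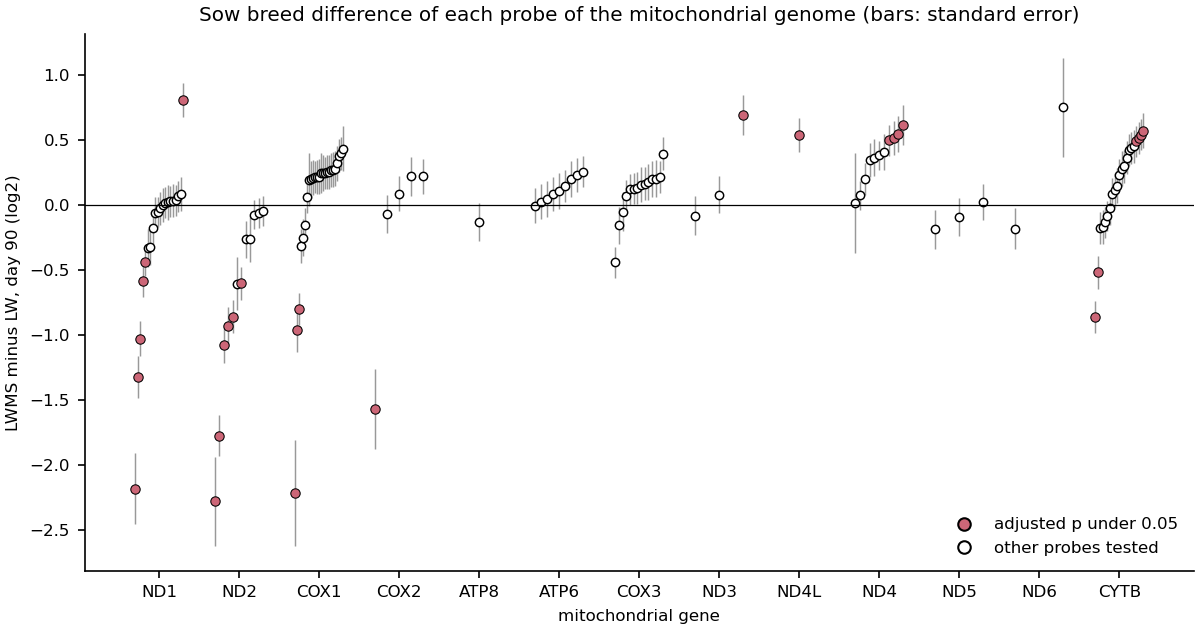
Difference LWMS minus LW at day 90 (log2, vertical axis) for each of 127 mitochondrial probes, grouped by gene along the horizontal axis, each point 1 probe with its standard error as a bar and called probes filled. ND1, ND2 and COX1 each hold a probe below −2, ND4 lies above 0 throughout, and CYTB and ND1 hold called probes on both sides of 0.

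X-linked genes came next. In 10 of the 12 called the level was lower in LWMS, whose X chromosome came from an MS sow. Over all 357 X-linked genes tested 57.7% had positive values (median 0.05), beside 61.0% of all genes (median 0.05). The largest of the tightly measured ones was SRPX2, a secreted sushi-repeat protein with roles in vessel growth and synapses. LW fetuses lay at 0.08 to 0.85 (median 0.56) and LWMS fetuses at −1.84 to −1.02 (median −1.35). Every LWMS fetus was below every LW fetus, with a difference of −1.92 (SE 0.19, limma adjusted p = 6.3e-11), and the other SRPX2 probe fell by 0.91.

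IQSEC2, an exchange factor for ARF GTPases, lay at −0.50 to −0.08 in LW and −1.47 to −0.89 in LWMS, without overlap (−1.04, SE 0.12, limma adjusted p = 4.1e-09). LOC100520992 fell by 1.09 and CSTF2, a factor of mRNA 3′ end cleavage, fell by 0.74, also without overlap. FAM199X fell by 0.87 and MUM1L1 by 1.48, with ranges that overlapped at the edge. ATRX, a chromatin remodeller, fell by 0.45 on 1 of 3 probes, and SH3BGRL fell by 0.62.

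The remaining lower X-linked genes had wide spreads within LW. TMEM27 (collectrin, which escorts amino acid transporters to the brush border) lay at −3.16 to 0.95 in LW (median −0.38) and −3.90 to −3.09 in LWMS (median −3.63). The LWMS fetuses were thus all near the lowest LW fetuses (−2.52, SE 0.53, limma adjusted p = 0.0048). SERPINA7, the thyroxine-binding globulin, was well above background in 7 of 9 LW and 1 of 9 LWMS fetuses (−2.31, limma adjusted p = 0.0058). LOC100157285 and TMEM47 were higher in LWMS. LOC100157285 lay at 0.35 to 2.22 in LW and 2.47 to 3.74 in LWMS (2.26, SE 0.47, limma adjusted p = 0.0034), and TMEM47 rose by 0.67 on 1 of 3 probes.

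CYP11A1 held the largest differences among the probes called, and all 6 of its tested probes were higher in LWMS. On probe a, LW fetuses lay at −7.48 to −5.44 (median −6.77), well above background in 0 of 9. LWMS fetuses lay at −3.08 to 0.52 (median −1.31), well above background in 9 of 9. The measured difference was 5.25 (SE 0.57, limma adjusted p = 1.8e-09). Set against the lowest signal that counts as well above background on each array, the level on the second copy of probe a was at least 16.3-fold higher in LWMS, with a measured difference of 5.51. Probe b, which overlaps it, gave 5.68, and a probe not shown gave 5.73, whereas probes c and d, from other stretches, gave 1.53 and 1.66. Probe c, the brightest, lay at −4.80 to −3.43 in LW and −4.10 to −1.49 in LWMS, with overlapping ranges.

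The other steroid genes did not follow it past the threshold. CYP17A1, the next enzyme towards androgens and cortisol, had 4 tested probes with values of 0.11 to 0.70, none called and none well above background in more than 1 fetus of 9 in either group. HSD3B1 had a value of 0.42 (adjusted p = 0.77 in limma). Of 12 steroid synthesis genes tested CYP11A1 alone was called, and 11 had positive values (median 0.30). CYP11A1 was again the sole call of 4 adrenal or gonadal cell markers. Over all genes 0.712% were called, 61.0% were positive and the median was 0.05, and no test was made of these lists.

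**Figure D3:**
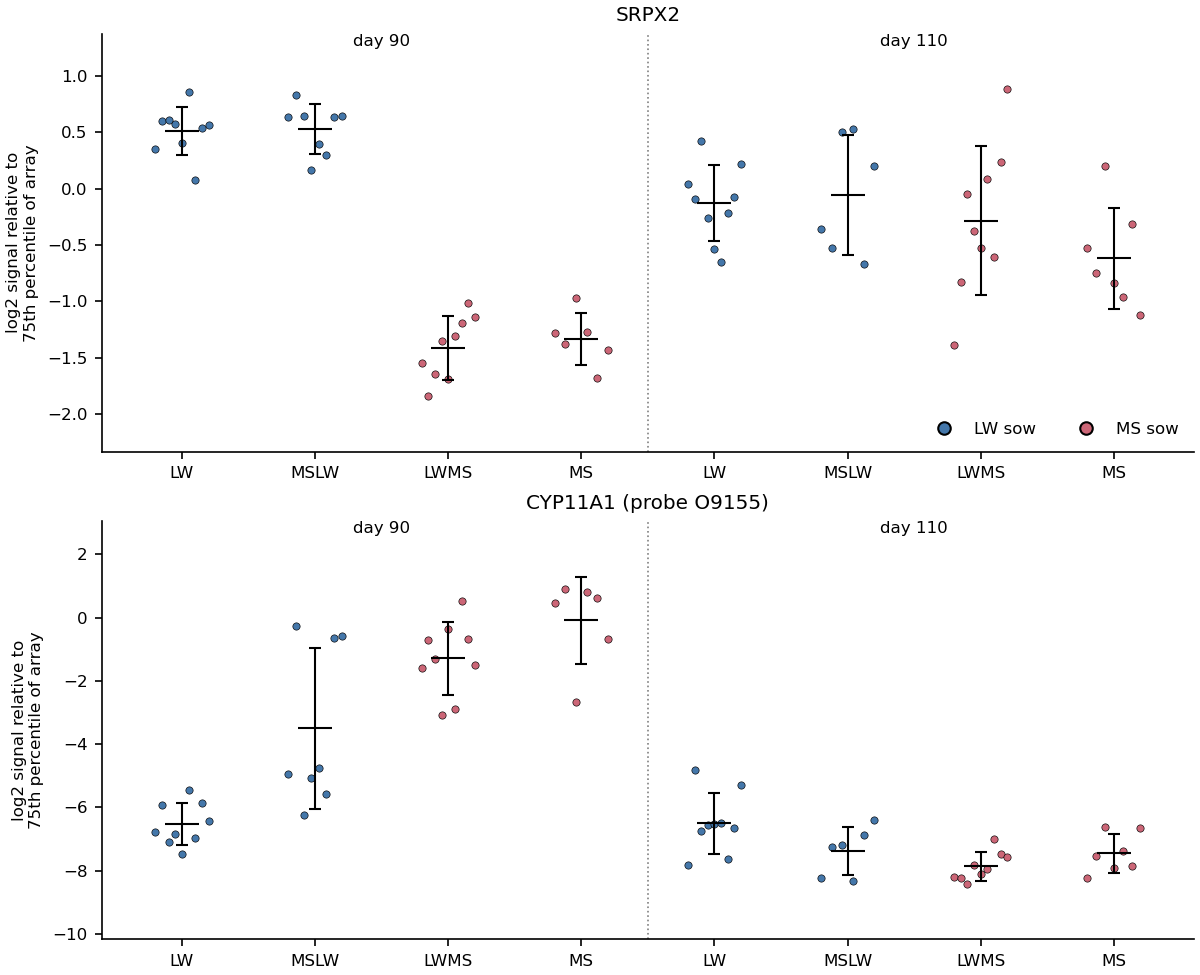
Level of SRPX2 (top) and CYP11A1 probe a (bottom) in each fetus of the 8 groups (log2, 75th percentile of the array at 0, vertical axis), each point 1 fetus, with group mean and SD as lines and colours for the breed of the sow. SRPX2 is low in both groups from MS sows at day 90, and the groups overlap at day 110. CYP11A1 has day 90 means of −6.54 in LW, −3.51 in MSLW, −1.29 in LWMS and −0.09 in MS, with MSLW fetuses widely spread.

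Among autosomal genes, and genes without a chromosome in the tables used, the largest differences were gains in LWMS. AADAT (an aminotransferase of lysine and kynurenine breakdown) was well above background in 0 of 9 LW and 7 of 9 LWMS fetuses. LW lay at −8.57 to −4.26 (median −8.03), and LWMS at −6.66 to 0.56 (median −1.19), so that the low LWMS fetuses overlapped with LW. The difference of 5.54 (SE 0.74, limma adjusted p = 4.9e-07) corresponds to a level at least 10.6-fold higher, and the other AADAT probe rose by 4.28. NDST4, which sulphates heparan chains, lay at −7.00 to −2.68 in LW and −2.37 to 1.51 in LWMS, without overlap (5.03, SE 0.96, limma adjusted p = 0.0011). The lowest LW signals lie near the floor of the array, so the size of this NDST4 difference is uncertain. BCL2L15, a member of the BCL2 family expressed in the gut, was well above background in every fetus of both groups and lay at −2.34 to −0.76 in LW and 1.32 to 2.56 in LWMS, again without overlap (3.41, SE 0.39, with 1 LWMS value missing, limma adjusted p = 1.1e-08).

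Fetal plasma protein transcripts were among the higher genes, though not as a group. AFP (alpha-fetoprotein) was higher on all 3 probes, by 2.48 to 2.64. On its brightest probe LW fetuses lay at −0.79 to 0.43 (median −0.24) and LWMS fetuses at 0.34 to 3.45 (median 2.42), overlapping at the edge. C5, a complement component, was higher on all 3 probes, by 1.93 on the brightest (limma adjusted p = 0.002). FGL1, a liver fibrinogen-like protein, went the other way, from −3.92 to −1.20 in LW to −7.12 to −2.23 in LWMS (−2.65, limma adjusted p = 0.006). Of 14 plasma protein genes in the fixed list AFP alone was called (median −0.09), beside 0.712% of all genes called (median 0.05).

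Several higher genes encode enzymes or transporters of metabolism and were picked for description after their values were seen. GSTA2, a glutathione transferase, lay at 2.48 to 4.47 in LWMS, while LW was spread from −4.65 to 3.07 (median 1.45), with 3 fetuses far under the rest, so that the groups overlapped (3.40, SE 0.75, limma adjusted p = 0.0075). PGM1, which interconverts glucose phosphates, was 1.87 higher on its brightest probe, 1.78 higher on another and at −0.02 on the one that was not called. The sugar transporter family member SLC5A4 lay at 1.35 to 2.24 in LW and 2.53 to 3.81 in LWMS, without overlap (1.53, limma adjusted p = 0.034). DIO1, which activates thyroid hormone, was 2.41 higher and well above background in 3 of 9 LW and 8 of 9 LWMS fetuses. The biotin-recycling enzyme BTD was 1.70 higher, the mitochondrial aldehyde dehydrogenase ALDH1B1 0.94 higher and the glutamate transporter SLC1A1 0.94 higher.

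Further higher genes had other roles. HSPB3, a small heat shock protein, lay at −5.73 to −4.46 in LW and −3.51 to −2.07 in LWMS, without overlap (2.38, SE 0.43, limma adjusted p = 0.00038). The LW signals of HSPB3 were low, so the size of its difference is uncertain. ABCC9, a regulatory subunit of potassium channels, was 1.40 higher, the centromere protein CENPM 1 log2 unit higher on 1 of 3 probes, and COL18A1, the basement membrane collagen that yields endostatin, 0.77 higher, all without overlap. ESR1, the oestrogen receptor, was 1.14 higher with overlapping ranges. CPT2, which completes the import of long-chain fatty acids into mitochondria, was 0.33 higher on 1 of 2 probes.

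Lower autosomal genes were fewer among those with a name, 14 against 42 higher. PLEKHD1 was well above background in 8 of 9 LW and 1 of 9 LWMS fetuses (−2.30, limma adjusted p = 0.00032). TEX12, a protein of the meiotic synaptonemal complex, fell by 2.18 and LYRM1 by 1.80, both with overlap. The keratin gene KRT2 fell by 0.97, FAM118A by 0.84, CMTM3 by 0.78 and the calcium-binding RCN2 by 0.49, all without overlap. CST6, a cystatin protease inhibitor, fell by 1.22, and COX7B, a nuclear-encoded subunit of cytochrome oxidase, fell by 0.87.

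**Figure D4:**
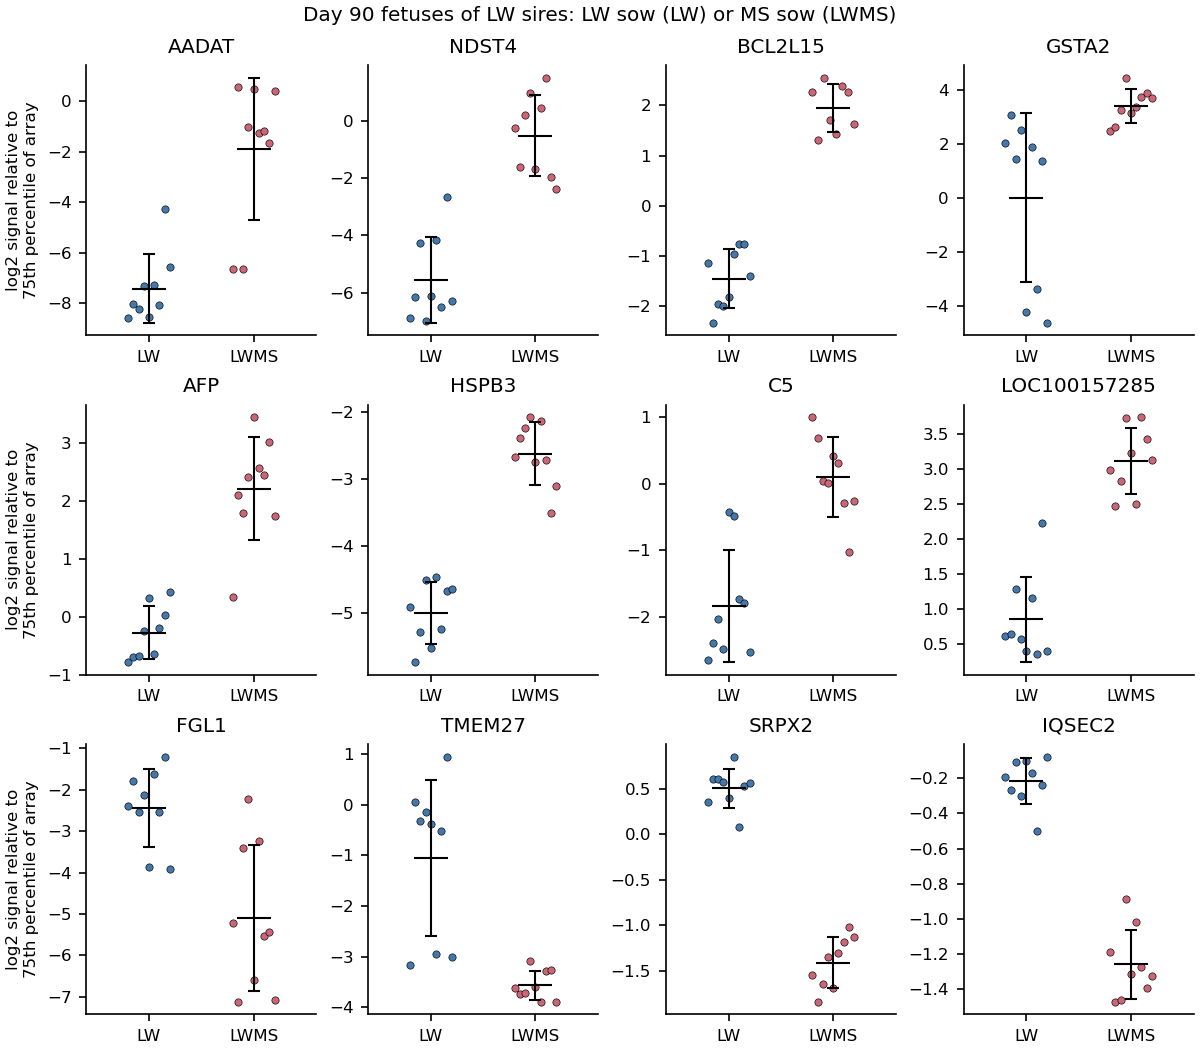
Level of 12 genes in each LW and LWMS fetus at day 90 (log2, 75th percentile of the array at 0, vertical axes that differ between panels), each point 1 fetus, with group mean and SD as lines. NDST4, BCL2L15, HSPB3, SRPX2 and IQSEC2 show no overlap between groups, whereas AADAT, GSTA2 and TMEM27 do.

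For many genes the call rested on part of the probes. Of 118 genes with a called probe, 38 had a single probe, and of the other 80 all probes were called in 15 and only 1 probe in 54. SELENOF, a selenoprotein of the endoplasmic reticulum, had 1 called probe of 6. That probe lay at −6.47 to 0.00 in LW and 0.08 to 0.80 in LWMS (4.66, limma adjusted p = 1.7e-05), whereas the other 5 had values of −0.07 to 0.23.

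Gene lists of intestinal functions held 0 or 1 call each. Over all genes 0.712% were called, 61.0% were positive and the median was 0.05, and nothing particular to a list is read from its count. None of 19 brush-border enzymes was called (median 0.26, 15 positive), and none of 19 genes of lipid absorption (median 0.20) or 16 of endocytosis and IgG uptake (median 0.17). Of 14 sugar and amino acid transporters SLC1A1 was called (median 0.38), and of 21 genes of fatty acid oxidation and ketogenesis CPT2 (median 0.08). These calls were fragile, as SLC1A1 lost its call in 18 and CPT2 in 19 of 30 alternative runs. None of 11 gluconeogenesis genes (median 0.06), 15 cholesterol synthesis genes (median −0.09) or 11 glucocorticoid response genes (median 0.10) was called. Xenobiotic metabolism had GSTA2 among 27 genes (median −0.11), heat shock proteins HSPB3 among 19 (median 0.13), and collagens and matrix COL18A1 among 29 (median −0.06).

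Lists of cell types and of other pathways are given beside the same shares over all genes (0.712% called, 61.0% positive). No member was called among 14 macrophage (median 0.05), 17 lymphocyte (0.16), 7 goblet (0.22), 13 enteroendocrine (0.01), 10 crypt and Wnt (−0.12), 21 cell cycle (−0.05), 14 smooth muscle (−0.04), 13 enteric neuron and glia (−0.11), 11 endothelium (−0.03) and 7 pancreas acinar genes (0.21). The 10 erythroid genes were all positive, from 0.19 to 0.54 (median 0.37), none called. Of 23 genes of MHC and antigen presentation 22 had positive values (median 0.21), none called, while 34 interferon-stimulated genes had a median of −0.10. Among 34 nuclear genes of oxidative phosphorylation 28 were positive (median 0.11), and COX7B, which was lower, was the single call. Neither the 22 imprinted genes (median −0.07), the 15 of the IGF axis (0.17) nor the 16 of amino acid and urea metabolism (0.13) held a call.

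Genes that changed with age were described from fetuses of MS sires, which share no array with the comparison. Between days 90 and 110, 914 genes (8.46%) passed an adjusted p of 0.01 in limma with a log2 change of 0.5 or more in size. Of 441 that rose with age, 5 were called in LWMS against LW at day 90 (1.13%, beside 0.712% of all genes), all higher, and 69.4% had positive values (median 0.11), beside 61.0% of all genes (median 0.05). Of 473 that fell with age, 9 were called (1.9%), 7 higher and 2 lower, and 44.6% had positive values (median −0.04). The study's own list of genes under maternal genotype by age had 3 calls among 17 tested, namely CYP11A1 and HSPB3 higher and SRPX2 lower. That list was chosen on these samples and is not independent evidence.

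The same sow contrast can be made in other fetuses, MS against MSLW at day 90 (both with MS sires) and LWMS against LW at day 110. The first uses other fetuses, which by the mixed litters can come from the same sows, although the labels do not give the sow. The second uses other fetuses, sampled at another age. MS against MSLW called 1000 probes at day 90 (2.47%), of which 186 were higher (0.459%) and 814 lower (2.01%). LWMS against LW at day 110 called 4279 probes (10.6%), of which 1860 were higher (4.59%) and 2419 lower (5.97%). Of the 336 probes called at day 90 with LW sires, 333 had the same sign with MS sires (99.1%, against 64.1% of all tested) and 320 at day 110 (95.2%, against 67.9%). Calls of the same sign numbered 164 with MS sires (2.36% of all tested) and 216 at day 110 (8.75% of all tested), and 128 in both. Neither held a call of the same sign for 84.

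Mitochondrial and X-linked differences kept their sign more often than they were called again. All 28 called mitochondrial probes had the same sign in both, with 22 called with MS sires and 25 at day 110, and 19 in both. ND2 probe a was at −1.73 with MS sires and −1.32 at day 110, and ND1 probe a at −2.24 and −1.78. All 12 called X-linked genes had the same sign in both, and 9 were called in both, while TMEM47 was called in neither and SRPX2 was not called at day 110. IQSEC2 was at −0.97 and −0.91, and LOC100157285 at 2.45 and 2.85. MSLW fetuses had an IQSEC2 mean of −0.37 ± 0.24 (SD, n = 8), and MS fetuses one of −1.34 ± 0.28 (SD, n = 6).

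**Figure D5:**
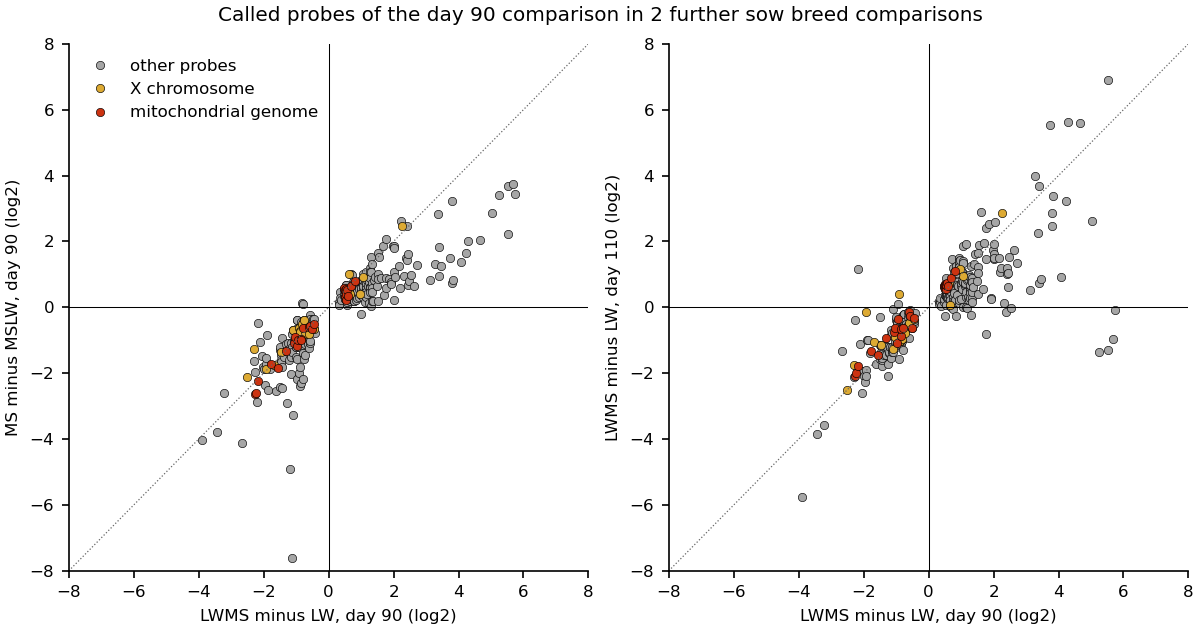
Difference LWMS minus LW at day 90 (log2, horizontal axis) of the 336 called probes against the same sow contrast in fetuses of MS sires at day 90 and in LW-sired fetuses at day 110 (vertical axes, equal values on the dotted line), each point 1 probe, with mitochondrial and X-linked probes in separate colours. Of 336 probes 333 and 320 lie on the same side of 0, and 4 CYP11A1 probes above 5 at day 90 lie at or under 0 at day 110, where they were well above background in no fetus of either group.

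Genes on other chromosomes recurred unevenly. AADAT was 6.91 higher in LWMS at day 110 (limma adjusted p = 1.5e-09), but with MS sires its value was 2.22 (adjusted p = 0.16 in limma), where MSLW fetuses lay at −2.14 ± 2.34 (SD, n = 8) and MS fetuses at 0.08 ± 0.89 (SD, n = 6). That MSLW mean and SD lean on fetus 450 at −7.92, while the other MSLW fetuses lay at −1.56 to −0.98. BCL2L15 was called in both, at 1.83 with MS sires and 3.69 at day 110. In MSLW at day 90 its level was −1.29 in fetus 450 and 0.92 to 2.07 in the others. FGL1 was at −4.11 with MS sires (limma adjusted p = 2e-05) and at −1.34 at day 110, where it was not called. COL18A1 and HSPB3 were called in neither. In MSLW at day 90 HSPB3 was at −7.90 in fetus 450 and at −3.89 to −2.50 in the others, so its value with MS sires also leans on that fetus. HSPB3 signals were low in both groups at day 110, so a difference there could be missed.

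The sow difference itself differed between ages for 15 probes of 40515 (0.037%), 9 with a positive (0.0222%) and 6 with a negative change (0.0148%), among them 4 of CYP11A1 and 2 of SRPX2. On CYP11A1 probe a the difference was 5.25 at day 90, and at day 110 the probe was well above background in 0 of 9 LW and 0 of 9 LWMS fetuses. The change between ages was called (limma adjusted p = 8.8e-07), but its size rests on signals below background and is not given as a fold. With MS sires at day 90 it was 3.42 (limma adjusted p = 0.00051). SRPX2 was at −1.92 at day 90 and −0.16 at day 110 (change −1.77, limma adjusted p = 9.4e-05), with MSLW at 0.53 ± 0.22 (SD, n = 8) and MS at −1.34 ± 0.23 (SD, n = 6) at day 90. TEX12 was at −2.18 and 1.16 (change −3.33, limma adjusted p = 0.026). G6PC, the last enzyme of glucose release, was at 0.16 at day 90 and 3.30 at day 110 on 1 of its 3 probes (change −3.14, limma adjusted p = 0.034). RACGAP1, a protein of cell division, was at −0.01 and −1.15.

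The sow difference differed between LW and MS sires for 18 probes (0.0444%), with a positive interaction in each. In 17 of them the difference with MS sires was the larger and negative, and the other, a probe without a gene name, was at 2.01 with LW sires and 0.23 with MS sires. FAM118A was at −0.84 with LW sires and −2.29 with MS sires (interaction 1.45, limma adjusted p = 0.047). MTFP1, a protein of mitochondrial fission, was at −0.84 (adjusted p = 0.059 in limma) and −3.34. BCAS2, TMOD3 and MMRN2 were not called with LW sires and lay at −3.89, −3.33 and −4.58 with MS sires.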

How the data were processed

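Spot intensity on a linear scale, from Agilent Feature Extraction 10.10.1.1 per the labels, was deposited for each one-colour array, together with the authors' log2 values for 39446 probes, which are quantile normalized by comparison with the scanner intensities. The log2 of the background-corrected intensity minus the 75th percentile of the array was used, without control and outlier spots. A probe was tested when well above background on at least 75% of arrays of 1 or more of the 8 groups, as 40515 of 60305 were. The filter sets how many tests the adjustment covers, and background subtraction makes differences near the floor uncertain. The 8 group means were fitted over 63 arrays with limma 3.58.1 (R 4.3.3, data.table version 1.17.8), and tables and figures were made with Python 3.11.15, numpy 2.4.6, pandas 2.3.3, scipy 1.17.1 and matplotlib 3.10.9.

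Gene names came from the array files and RefSeq tables (22717 of the probes tested). The comparison, gene lists and tests were chosen with earlier results of these data known. By rule, the text names the 15 called genes with the largest difference in each direction whose groups did not overlap, called members of the lists and the study's genes of maternal genotype by age. Other genes named were chosen after their values were seen. Of the genes called, 2 are not reported here by name and were left out of the tests of single fetuses. On simulated data, 16.4% of 67 probes changed by 0.5 on the log2 scale, 56.7% of 67 changed by 1 and 84.8% of 66 changed by 1.5 were recovered, with 3 false calls. Simulated fetuses were independent, without litters or outlying arrays, so the false calls in the real data can be more. No arrays were duplicates (highest correlation 0.991 over 1953 pairs). Alternatives were other background corrections and normalizations, the authors' values, other filters, the slide as a block, array weights, fewer groups in the fit and leaving out each fetus. Probe positions in the genome were not used here, and precision is limited by the number of fetuses.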

Additional observations from a re-analysis of the deposited data

Results flagged for a closer look

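Among tests of single fetuses that lay far from the other 8 of their group, 15 of 150 passed, where chance gives about 1 in 20. LW fetus 484 accounted for 8, with levels of 2.22 for LOC100157285, 4.28 for COL18A1, −1.83 for PLEKHD1, 0.45 for CSTF2, 2.16 for RCN2, −1.15 for SLC1A1, −4.26 for AADAT and −0.0003 for LOC100523871. Among other LW fetuses, CMTM3 was at 2.96 in fetus 462, PHF2 at −0.48 and SERPINA7 at −7.97 in fetus 736, and SHISA2 at −2.10 in fetus 500. Among LWMS fetuses, DOK1 was at 2.25 in fetus 508 and UBE2CBP at −2.44 in fetus 504, and 87.6% of spots were well above background in fetus 823.

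The sow breed difference changed between days 90 and 110 by −1.77 for SRPX2 and −3.33 for TEX12, and by 6.61, 6.64, 6.79 and 5.82 for 4 CYP11A1 probes (limma adjusted p = 8.8e-07, 9.8e-06, 7e-06 and 0.00057). At day 110 these 4 probes were well above background in no LW or LWMS fetus, so the sizes include signals below background and are not folds. For FAM118A it differed between sire breeds by 1.45 (limma adjusted p = 0.047).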

How the results depend on the processing

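No paired analysis was possible because the groups share no replicate numbers. The slide as a block gave 389 called probes. The 336 probes called became 213 with median centring, 1630 with array weights, 521 with the 18 fetuses alone and 534 with day 90 groups alone. They ranged from 243 (without LWMS fetus 525) to 366 (without LW fetus 484) when 1 fetus was left out, and were 299 without fetus 823 and 332 without both 484 and 823, a choice made after seeing the data. In the authors' matrix 176 probes were higher and 228 lower (43.6% higher, against 55.7%). With MS sires, 1000 became 622 with normexp, 554 with median centring, 2151 with weights and 597 with the compared fetuses alone. At day 110, 4279 became 11334 with weights and 2361 with the compared fetuses alone, and the share higher (43.5%) became 80.3% with median centring, 54.4% with quantile normalization and 32% without a filter. The sire interaction of 18 probes became 2 with normexp, 6 in the authors' matrix and 113 with weights. The age interaction of 15 became 71 with normexp, 9 with median centring and 1086 with weights. The share of X-linked genes called, 3.36%, was 9.52% with weights and 2.80 to 3.36% with 1 fetus left out. The age-changed genes in the sow breed difference, 14 called, became 9 with median centring and 92 with weights, and 11 to 16 with 1 fetus left out. Both values with weights stand beside a rise from 336 to 1630 calls over all probes. The cause of these shifts was not tested. Of the 77 genes called, 36 remained called with median centring, 64 with quantile normalization and 70 with normexp, and 25 lost their call under no alternative run, among them CYP11A1, SRPX2, IQSEC2, AADAT and BCL2L15. None of the 77 genes called turned its sign under any alternative run, although the balance of higher and lower probes turned as given above. Only a difference of about 1 or more was mostly recovered on simulated data, so smaller ones may be missed.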
